A study of Mus musculus with 4 samples.

Results

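Connexins and pannexins were examined in primary mouse astrocytes from WT and Tet1 KO pups. The members were 8 genes chosen by name, Gja1, Gja4, Gjb2, Gjb6, Gjc1, Gjc3, Panx1 and Panx2, of which 6 were matched by symbol among the 25393 genes of the table. Gja4 and Gjc3 were not matched and are not analysed here. RNA-seq libraries came from untreated C57BL/6 astrocytes of cortex and hippocampus, isolated on postnatal day 1, with 2 libraries from wild type mice and 2 from tet1-/- mice. The KO was constitutive, so every cell type of the donor pups carried it. Each isolation used 2 mice, and cells grew for about 7 days before shaking at 260 rpm and another 24 h of culture. The study speaks of biological repeats for its RNA-seq, more of them than the libraries analysed here. The labels do not say whether the 2 libraries of a genotype came from separate cultures, and p-values measure only the spread between these libraries. Gene reads came to 18749610 and 22673555 in WT against 20702980 and 22403163 in KO.

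Tet1 itself had 266 and 121 normalized counts in WT against 173 and 463 in KO. A count over the whole gene does not look inside the deleted part, which is not given in the sources used here, so it is a weak check of the label. The count was not lower, so these 2 libraries are called the KO-labelled libraries, and each direction rests on the label. Xist, the RNA of the inactive X chromosome, had 8.54 and 0.92 normalized counts in WT against 2896 and 13367 in KO-labelled libraries. Label and sex of the pups cannot be told apart. The cells were labelled astrocytes, and Gfap, Aldh1l1, Slc1a3, Aqp4 and the other 8 astrocyte markers on the list were all detected. Their summed level was 2571 and 2586 FPKM in WT against 3492 and 565 in KO-labelled libraries, so replicate 2 of the latter stood below the other 3. Gfap alone gave 687 and 765 FPKM of the sums in WT, and 1871 and 117 FPKM in the KO-labelled libraries. As fitted by limma (below), 11 of the 12 markers were lower in the KO-labelled libraries. In 6 of them the groups did not overlap, against 25.4% of all genes. Gfap and Aldoc were among the 11, but edgeR and DESeq2 fitted both higher. Their log2 fold changes were 0.54 and 0.45 in edgeR, against -0.58 and -0.46 in limma.

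Connexins are proteins that assemble as hexamers in the plasma membrane. Docked hexamers of neighbouring cells form a gap junction, through which ions, second messengers and metabolites pass, and undocked hexamers can open as hemichannels. Astrocytes of the brain are extensively coupled in this way, mainly through connexin 43 (Gja1) and connexin 30 (Gjb6). Pannexins share this membrane topology but mostly form single-membrane channels, and pannexin 1 is known as a path for the release of ATP.

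Each deposited value is a number of reads over the size factor of its library, called a normalized count here. They are not corrected for gene length, so genes were compared with each other only as FPKM, computed here from the recovered reads and the gene lengths of the table. Differences are log2 fold changes of the KO-labelled libraries over WT on log2(normalized count + 1), from a limma fit over 22094 genes with a mean of at least 1. This scale understates the change of low genes. A gene was called at an adjusted p under 0.05 (limma, Benjamini-Hochberg over all genes tested). By that criterion 0 of the 6 members were called, as were 0% of all genes. In all, 3032 genes passed an unadjusted p under 0.05. Of all genes, 9.18% passed it with lower values in the KO-labelled libraries, and 4.54% with higher values. Among the members 3 passed it, Gjb2, Gjb6 and Panx2, all lower. Both KO-labelled libraries were below both WT libraries in the same 3 genes, against 25.4% of all genes, and above both in Gja1 and Gjc1, against 22.5% of all genes. The groups overlapped for Panx1.

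**Figure D1:**
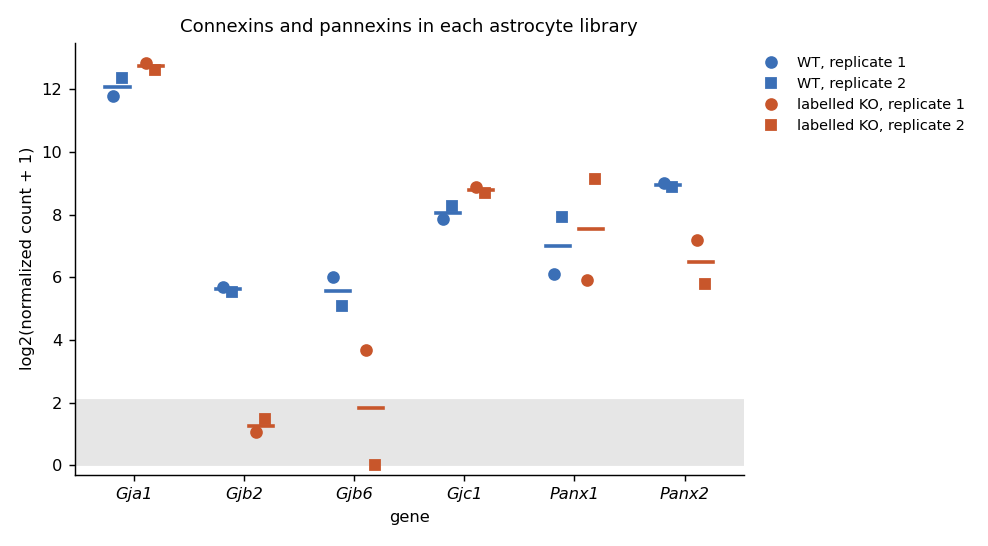
Level of each matched connexin and pannexin gene in each library, as log2(normalized count + 1). Points are single libraries, horizontal bars are group means (n = 2), and the grey band ends at 3 reads (3.21 normalized counts). Gjb2, Gjb6 and Panx2 were lower in both KO-labelled libraries, Gja1 and Gjc1 were higher, and Panx1 overlapped.

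Gja1, which encodes connexin 43, was the most abundant member in all 4 libraries. Gja1 (ENSMUSG00000050953) spans bases 56377330 to 56402513 of chromosome 10 (GRCm38, plus strand). It is the only matched member on the chromosome of Tet1, from which it is 6402057 bases away. It had 3557 and 5231 normalized counts in WT against 7361 and 6344 in KO-labelled libraries. Both KO-labelled libraries were above both WT libraries, and the WT libraries were 1.47-fold apart. Means were 4394 ± 1184 in WT and 6853 ± 719 in the KO-labelled libraries (SD, n = 2), a ratio of 1.56. In limma its log2 fold change was 0.66 (SE 0.33, adjusted p = 0.443 from limma). Between single libraries, the 4 log2 differences ranged from 0.28 to 1.05.

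Gjc1 encodes connexin 45, a low-conductance connexin also known from neurons, the heart and vascular smooth muscle. Gjc1 (ENSMUSG00000034520) lies on chromosome 11 from 102799579 to 102819700 (minus strand). Gjc1 had 234 and 306 normalized counts in WT against 468 and 410 in KO-labelled libraries. The groups did not overlap, and the lowest KO-labelled library was 0.42 above the highest WT library on the log2 scale. Means were 270 ± 51.3 and 439 ± 40.8 (SD, n = 2), a ratio of 1.63. Fitted, Gjc1 had a log2 fold change of 0.71 (SE 0.35, adjusted p = 0.440 from limma).

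Gja1 and Gjc1 had nearly the same profile over the 4 libraries. After each gene was centred on its mean log2 value, the root-mean-square distance between them was 0.06. Gja1 was also the nearest member to Panx1 and Panx2, but at 1.29 and 1.63, among the 4 members with a mean of at least 50. Over the 12868 genes with such a mean, the 5 nearest to Gja1 were Gm12174, Upf3a, Plod1, Polr2l and Serf2, at distances of 0.02 to 0.03. Plod1, a collagen lysyl hydroxylase, had 1169 and 1700 normalized counts in WT against 2421 and 1994 in KO-labelled libraries. With 4 libraries this likeness is a description only.

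Gjb2 and Gjb6 had the lowest mean levels of the 6, and both were lower in the KO-labelled libraries. They encode connexin 26 and connexin 30, which join in mixed channels in the cochlea and are expressed by astrocytes and leptomeningeal cells. Both genes are on the minus strand of chromosome 14, with 18.6 kb between them, and GENCODE M21 places no other gene over either. Gjb2 (ENSMUSG00000046352) spans 57098600 to 57104702, and Gjb6 (ENSMUSG00000040055) spans 57123303 to 57133611. To show what lies before these 2 neighbouring genes and before Gja1, which differed in the other direction, the 250 bases before each RefSeq start are given 5′ to 3′ on the strand of the gene (GRCm38.p6). Capitals mark CG dinucleotides, the sites of DNA methylation on which Tet enzymes act. The windows are chr14:57104703-57104952 (minus) for Gjb2, chr14:57133612-57133861 (minus) for Gjb6 and chr10:56377050-56377299 (plus) for Gja1.
Gjb2: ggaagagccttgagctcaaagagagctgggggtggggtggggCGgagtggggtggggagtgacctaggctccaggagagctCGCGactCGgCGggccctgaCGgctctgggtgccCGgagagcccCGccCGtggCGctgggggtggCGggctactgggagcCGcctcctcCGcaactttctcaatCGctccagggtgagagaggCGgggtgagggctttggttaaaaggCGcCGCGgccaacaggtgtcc
Gjb6: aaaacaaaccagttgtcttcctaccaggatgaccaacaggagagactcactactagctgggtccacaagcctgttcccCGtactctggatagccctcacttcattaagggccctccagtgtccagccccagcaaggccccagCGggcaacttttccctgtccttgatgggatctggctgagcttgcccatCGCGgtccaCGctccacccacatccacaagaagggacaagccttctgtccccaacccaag
Gja1: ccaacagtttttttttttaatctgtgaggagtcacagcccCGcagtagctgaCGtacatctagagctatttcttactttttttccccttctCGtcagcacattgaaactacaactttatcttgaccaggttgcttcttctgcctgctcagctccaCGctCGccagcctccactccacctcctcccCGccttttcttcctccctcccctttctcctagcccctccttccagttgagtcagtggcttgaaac

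CG dinucleotides, which read the same on both strands, numbered 18 before Gjb2, 5 before Gjb6 and 6 before Gja1. Of 32851 RefSeq windows of this length, 92.1% held at least 1 CG, and the median window held 6. As many or more were found in 21.7% of windows for Gjb2, in 55.6% for Gjb6 and in 50.4% for Gja1. RefSeq windows were matched for 6 of the 8 listed genes, and DNA methylation was not measured in these libraries.

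Gjb2 had 51.2 and 45.1 normalized counts in WT against 1.07 and 1.80 in KO-labelled libraries. These values stand for 48 and 49 reads in WT, and 1 and 2 reads in the KO-labelled libraries. Both KO-labelled libraries were under 3 reads, the count taken as the detection floor, while the WT libraries were 1.14-fold apart. From the pooled reads, the level in WT was 32.6 times that in the KO-labelled libraries, with an exact 95% interval of 10.8 to 161 that covers counting error only. The log2 fold change was -4.35 (SE 0.69, unadjusted p = 0.00112, adjusted p = 0.142 from limma).

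Gjb6 had 64.0 and 33.1 normalized counts in WT against 11.8 and 0 in KO-labelled libraries. The reads were 60 and 36 in WT against 11 and 0 in KO-labelled libraries, where a count of 0 allows up to 2.70 normalized counts. Both KO-labelled libraries were below both WT libraries, but by unequal amounts. The ratio of pooled reads was 8.81 in favour of WT (exact 95% interval 4.71 to 18.2, counting error only). The log2 fold change was -3.72 (SE 1.33, unadjusted p = 0.0351, adjusted p = 0.340 from limma). It was -1.88 without labelled KO replicate 2, the library with no read, and -5.40 with a pseudocount of 0.1.

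Panx2 encodes pannexin 2, a large member of the family found mainly in the brain. Panx2 (ENSMUSG00000058441) lies on chromosome 15 from 89059734 to 89073567 on the plus strand. It had 510 and 474 normalized counts in WT against 147 and 54.1 in KO-labelled libraries. The WT libraries were 1.07-fold apart, those labelled KO were 2.71-fold apart, and the groups did not overlap. Means were 492 ± 25.1 and 100.4 ± 65.5 (SD, n = 2), so the mean in WT was 4.90 times that in the KO-labelled libraries. Fitted, Panx2 had a log2 fold change of -2.45 (SE 0.56, unadjusted p = 0.00604, adjusted p = 0.209 from limma). An antisense gene, 1810021B22Rik, overlaps Panx2, and it had 113 and 100.2 normalized counts in WT against 69.6 and 19.8 in KO-labelled libraries. In reads, 1810021B22Rik had 106 and 109 in WT, where Panx2 had 478 and 516. The overlap is one of whole gene spans, and exons were not compared. The strand setting of the counting is not given in the sources used here, and whether the pair shared reads was not tested.

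Panx1, which encodes pannexin 1, differed more within a label than between labels. Panx1 (ENSMUSG00000031934) lies on chromosome 9 from 15002128 to 15045478 (minus strand). Panx1 had 67.2 and 245 normalized counts in WT against 59.9 and 561 in KO-labelled libraries. The 2 WT libraries were 3.64-fold apart and the 2 KO-labelled libraries were 9.35-fold apart, with replicate 2 the higher in each. Means were 156 ± 125 and 310 ± 354 (SD, n = 2). The log2 fold change was 0.52 (SE 1.19, adjusted p = 0.877 from limma), and it was -0.41 without WT replicate 1 and -1.09 without labelled KO replicate 2.

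DESeq2 on the recovered reads called 2 of the 6 members. Gjb2 had a log2 fold change of -5.05 (SE 1.21, adjusted p = 0.00126 from DESeq2), and Panx2 one of -2.30 (SE 0.63, adjusted p = 0.00759 from DESeq2). Of the 17382 genes with an adjusted p in DESeq2, 4.62% were called lower and 1.64% higher. For Gjb6 its adjusted p was 0.225, and for Gja1, Gjc1 and Panx1 it lay between 0.530 and 0.758. The quasi-likelihood test of edgeR on the same reads called 0 of the 6, with adjusted p-values of 0.151 for Gjb2 and 0.246 for Panx2, and 0 of all genes, with 2733 at an unadjusted p under 0.05.

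Per length, Gja1 had 20.9 ± 5.04 FPKM in WT (SD, n = 2) and stood at the top of the family. Panx2 followed at 6.70 ± 0.54 FPKM and Gjc1 at 2.64 ± 0.42 FPKM, with no overlap between these 3 genes in the WT libraries. Panx1, Gjb2 and Gjb6 came last at 1.25 ± 0.98, 0.981 ± 0.117 and 0.895 ± 0.426 FPKM, and their ranges overlapped. In the KO-labelled libraries, Gja1 had 31.5 ± 1.24 FPKM and Gjc1 was second at 4.14 ± 0.11 FPKM. Panx1 had 2.53 ± 2.94 FPKM there, a range that overlapped both Gjc1 and Panx2, the latter at 1.29 ± 0.77 FPKM. Gjb6 and Gjb2 were lowest, at 0.0994 ± 0.141 and 0.0286 ± 0.0120 FPKM, and could not be ordered.

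The summed level of the 6 genes was 29.6 and 37.2 FPKM in WT against 39.1 and 40.1 FPKM in KO-labelled libraries. Gja1 made up 58.6% and 65.8% of that sum in WT against 82.8% and 76.4% in KO-labelled libraries. The mean share was 62.2% ± 5.10 in WT and 79.6% ± 4.51 in the KO-labelled libraries (SD, n = 2). Panx2 held 24.0% and 17.0% in WT, and 4.70% and 1.86% with the KO label. Gjb2 held at most 3.60% and Gjb6 at most 4.05% in any library. With 2 libraries a group, an exact permutation test of a share cannot give a two-sided p below 0.333.

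**Figure D2:**
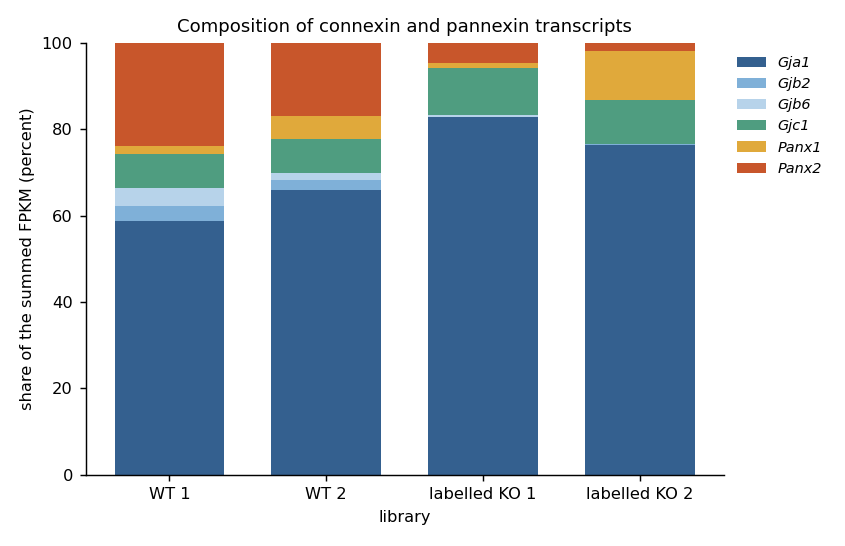
Share of each gene in the summed FPKM of the 6 matched genes, in percent, for each library. Gja1 held 58.6% and 65.8% in WT against 82.8% and 76.4% in KO-labelled libraries, where the share of Panx2 was 4.70% and 1.86%.

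These shares depend on gene length. The table gives Gja1 a length of 10257 bases, the union of the exons of 8 transcripts, while its longest principal transcript in GENCODE M21 has 3182 bases. With principal transcript lengths, a choice made after seeing the data, Gja1 had 67.4 ± 16.2 FPKM in WT and 101.6 ± 3.995 FPKM in the KO-labelled libraries (SD, n = 2). Its share was then 80.3% and 88.5%. The share of Panx2 was smaller with these lengths, at a mean of 8.76% ± 2.46 in WT and 1.19% ± 0.694 in the KO-labelled libraries (SD, n = 2). With both sets of lengths, the mean share of Gja1 was higher and that of Panx2 lower in the KO-labelled libraries. A length scales a gene alike in every library, so the second set is no separate support for these directions. Over connexins only, with the union lengths, the mean share of Gja1 was 81.9% in WT and 88.1% in the KO-labelled libraries.

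Of 15 other connexin and pannexin genes on a fixed list, 11 were in the table and 9 passed the filter on low values. limma called 0 of the 9, and their median log2 fold change was -0.01 (0.42 under quantile scaling), beside -0.07 over all genes tested (0.08 under quantile scaling). At an unadjusted p under 0.05, 1 of the 9 was higher (4.54% of all genes) and 1 was lower (9.18% of all genes). Gja5, which encodes connexin 40 and is known from endothelium and atria, had 112 and 205 normalized counts in WT against 12.8 and 10.8 in KO-labelled libraries. Both KO-labelled libraries were far below both WT libraries. The log2 fold change of Gja5 was -3.58 (SE 0.59, adjusted p = 0.147 from limma, 1.09e-05 from DESeq2). Gpr89 and 2 antisense genes are among the genes whose spans overlap that of Gja5 on the other strand. Exons were not compared and the strand setting is not given, so whether reads were shared was not tested. Gpr89 had 417 and 490 normalized counts in WT against 530 and 665 in KO-labelled libraries, the other direction from Gja5.

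Gja3, which encodes connexin 46 of the lens, had 1.07 and 5.52 normalized counts in WT against 42.8 and 82.0 in KO-labelled libraries. The KO-labelled libraries were above both WT libraries, of which replicate 1 was under 3 reads. The log2 fold change of Gja3 was 4.04 (SE 0.87, adjusted p = 0.195 from limma, 0.00293 from DESeq2). Gja3 lies 40.5 kb from Gjb2 on chromosome 14, next to the pair of genes that differed in the other direction. Gja6, Gjb5 and Gjd4 reached at most 8.28 normalized counts in any library.

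Of the genes for proteins that anchor, move or phosphorylate connexins, 4 had both KO-labelled libraries above both WT libraries, 1 had both below, and 9 overlapped. Over all genes, 22.5% had both above and 25.4% had both below. All 14 genes on this fixed list were tested, limma called 0, and the median log2 fold change was 0.24. Under quantile scaling it was 0.10, beside 0.08 over all genes tested. Mapk7, a kinase that phosphorylates connexin 43, was the only gene of the list at an unadjusted p under 0.05. Over all genes, 4.54% were higher at that level. Mapk7 had 867 and 930 normalized counts in WT against 1519 and 1594 in KO-labelled libraries. Its log2 fold change was 0.79 (SE 0.28, adjusted p = 0.326 from limma). Cdh2, the N-cadherin of the adherens junctions beside gap junctions, had no overlap either, at 14068 and 15166 normalized counts in WT against 22357 and 21013 in KO-labelled libraries. Tjp1, the scaffold ZO-1 that binds the tail of connexin 43, overlapped between the groups, with a log2 fold change of 0.40 (SE 0.35, adjusted p = 0.648 from limma).

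Other routes of ATP release were lower as fitted by limma in all 8 genes tested of 9 listed, against 53.7% of all genes tested. Of these, Lrrc8b had the higher mean in the KO-labelled libraries, 662 against 562 normalized counts in WT. Its log2 fold change was -0.22 in limma, but 0.18 in edgeR and 0.24 in DESeq2. limma called 0 of the 8, 3 were lower at an unadjusted p under 0.05 (9.18% of all genes), and 6 had both KO-labelled libraries below both WT libraries (25.4% of all genes). Slc17a9, 1 of these 6, had only 4 and 6 reads in WT against 1 and 1 in KO-labelled libraries. The median log2 fold change of the list was -1.19, and -1.07 under quantile scaling. Calhm2, a channel protein linked to astrocytic ATP release, had 67.2 and 112 normalized counts in WT against 3.21 and 5.41 in KO-labelled libraries. Its log2 fold change was -4.08 (SE 0.68, adjusted p = 0.147 from limma, 5.82e-05 from DESeq2). Lrrc8a, the obligatory subunit of the volume-regulated anion channel, differed little, at -0.33 (SE 0.34, adjusted p = 0.701 from limma). Slco2a1, a component of the Maxi-Cl channel, had 57.6 and 871 normalized counts in WT against 1.07 and 37.9 in KO-labelled libraries.

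Of the P2 receptors, which sense extracellular ATP and related nucleotides, 5 were higher and 6 lower as fitted. Both KO-labelled libraries were below both WT libraries for 4 of them (P2rx4, P2rx6, P2ry6 and P2ry12) and above for 0, against 25.4% and 22.5% of all genes. Of 14 listed genes 11 were tested, limma called 0, and the median log2 fold change was -0.29 (-0.13 under quantile scaling). P2rx6 and P2ry12 were lower at an unadjusted p under 0.05, and no receptor was higher, against 9.18% and 4.54% of all genes. P2rx6 had 369 and 400.0 normalized counts in WT against 206 and 80.2 in KO-labelled libraries. P2ry12, a microglial receptor, had at most 6 reads in any library. P2ry1 and P2ry2, the main metabotropic ATP receptors of astrocytes, overlapped between the groups, with log2 fold changes of 0.34 (SE 0.40) and 0.28 (SE 0.55).

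**Figure D3:**
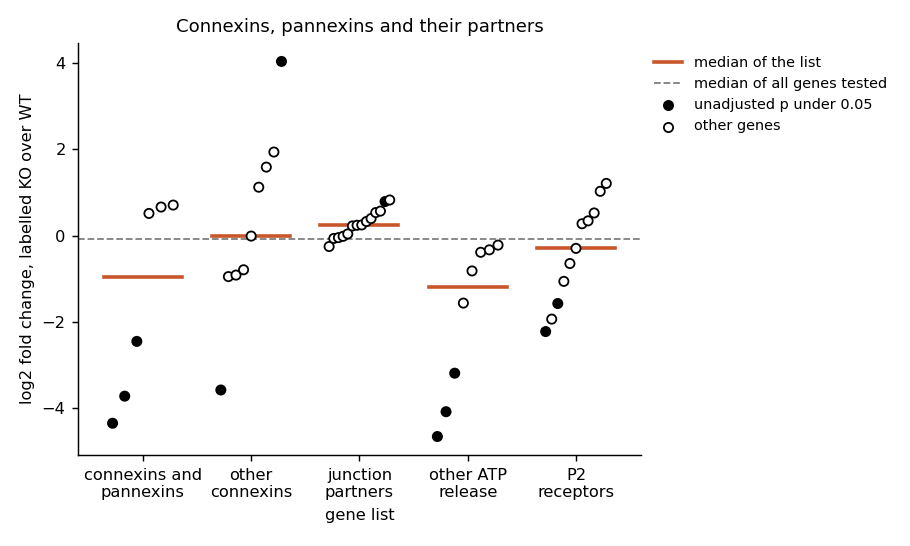
Log2 fold change (labelled KO over WT, limma) of each tested gene in 5 lists, with filled points at an unadjusted p under 0.05. Orange bars are list medians (-0.97, -0.01, 0.24, -1.19 and -0.29 from left to right) and the dashed line is the median of all genes tested, -0.07. Under quantile scaling the medians are -0.84, 0.42, 0.10, -1.07 and -0.13, and that of all genes is 0.08.

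Markers of other cells also differed between the labels, and in bulk libraries fewer cells of a type and less RNA per cell cannot be told apart. All 12 microglial markers were lower as fitted, 11 of them with no overlap, against 25.4% of all genes. Their summed level was 51.2 and 116 FPKM in WT against 7.32 and 4.61 FPKM in KO-labelled libraries, the direction of Gjb2, Gjb6 and Panx2. Between the WT libraries, replicate 2 had the higher microglial sum but the lower Gjb6, at 36 reads against 60. Gjb2 (48 and 49 reads) and Panx2 differed little between them, at 1.14-fold and 1.07-fold. Between the KO-labelled libraries, replicate 2 had the lower sum, Gjb6 and Panx2, while Gjb2 had 1 and 2 reads. The direction between labels was also that of 11 of the 12 astrocyte markers in limma. All 10 proliferation markers were higher with no overlap, against 22.5% of all genes. Their sums were 21.7 and 47.8 FPKM in WT against 78.7 and 129 FPKM in KO-labelled libraries, the direction of Gja1, Gjc1 and Gja3. Between the WT libraries, replicate 2 had the higher proliferation sum, Gja1 and Gjc1, while Gja3 had 1 and 6 reads. Between the KO-labelled libraries, replicate 2 had the higher proliferation sum and Gja3 but the lower Gja1 and Gjc1. The part of these cells in the connexin and pannexin values was not tested.

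For meningeal fibroblasts, which also use Gjb2 and Gjb6, 4 of 7 tested markers were higher and 3 lower as fitted. Their sums were 5.27 and 10.6 FPKM in WT against 9.85 and 11.3 FPKM in KO-labelled libraries. Col1a2 was higher, with 283 and 764 normalized counts in WT against 1568 and 987 in KO-labelled libraries. Dcn was lower, with 36.3 and 43.2 against 6.42 and 10.8. Slc6a13 was near the floor, with 1 and 4 reads in WT and 0 in both KO-labelled libraries. Endothelial markers, the cells in which Gja5 is best known, were low throughout, with sums of 0.551 to 1.45 FPKM over the 4 libraries and 2 of 5 higher as fitted. Of 7 mural cell markers 2 were higher, but their sum was 83.6 and 277 FPKM in WT against 593 and 1417 FPKM in KO-labelled libraries. Most of that sum was Acta2, the smooth muscle actin, and the other 6 markers summed to 28.05 and 36.79 FPKM in WT against 29.3 and 21.2 FPKM in KO-labelled libraries. Of 9 neuronal markers 7 were higher, with sums of 20.3 and 23.8 FPKM against 29.1 and 30.1 FPKM. Of 11 oligodendrocyte lineage markers 3 were higher, with sums of 217 and 324 FPKM in WT against 431 and 244 FPKM in KO-labelled libraries.

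The sign of the log2 fold change held for 5 of the 6 members under the 15 settings tried, the exception being Panx1. Many of these settings could not turn it. A mean minimum of 5, no filter, median ratio scaling, no variance trend and a replicate block left each log2 fold change as it was. Nor can leaving out 1 library turn the sign where the groups do not overlap, as in these 5 genes. Gjb2 had log2 fold changes of -4.57 to -4.13 with each library left out, and Panx2 of -3.16 to -1.74. Gja1 stayed between 0.39 and 0.94 and Gjc1 between 0.51 and 0.90 with each library left out. Gjb6 ranged from -5.56 to -1.88, and Panx1 from -1.09 to 2.12. Without labelled KO replicate 2, the library with the lowest astrocyte marker sum, Gja1 was at 0.77 and Gjc1 at 0.80. Gjb2 was then at -4.57, Gjb6 at -1.88 and Panx2 at -1.74. Labelled KO replicate 1 was also below both WT libraries in 6 of the 12 astrocyte markers. Leaving out replicate 2 therefore does not remove the difference in these markers. Of the 3 members at an unadjusted p under 0.05 in limma, 1 (Gjb2) passed without WT replicate 1 or WT replicate 2, and 2 (Gjb2 and Panx2) passed without labelled KO replicate 2. The same 2 passed, and Gjb6 did not, with a pseudocount of 0.1, quantile scaling, no variance trend or edgeR.

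**Figure D4:**
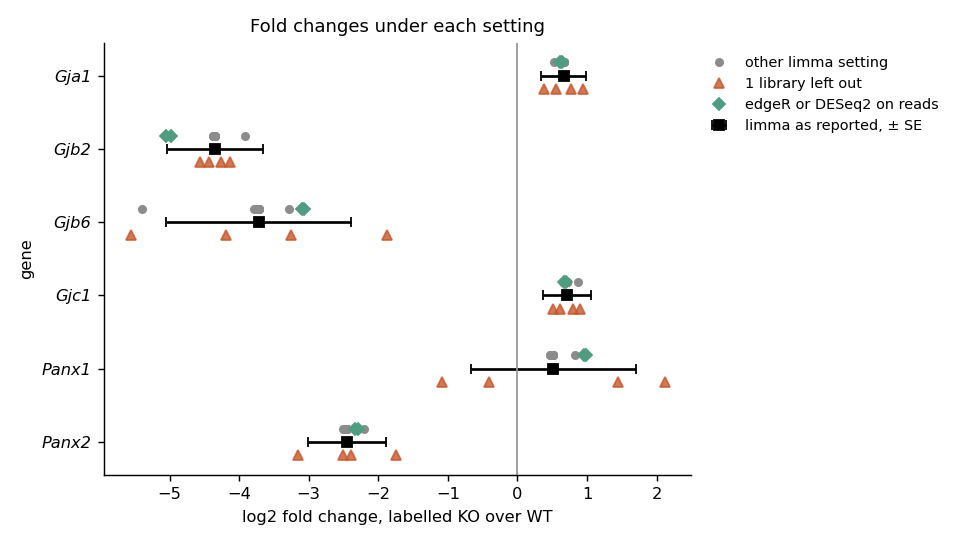
Log2 fold change (labelled KO over WT) of each matched gene under each setting. Black squares are the limma values with their SE, grey points other limma settings, green diamonds edgeR or DESeq2 on the reads, and triangles fits with 1 library left out. Only Panx1 lay on both sides of 0.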

How the data were processed

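RNA-seq values of 4 astrocyte libraries, 2 WT and 2 labelled KO, were used. The authors filtered paired-end reads and aligned them to mm10; the aligner, counter and annotation are not given in the sources used here. Each signal value the authors deposited is the read count of a gene in a library over a size factor (0.937 and 1.09 in WT, 0.934 and 1.11 in labelled KO). All values (100%, tolerance 0.05 read) were whole multiples of 1 read, so reads were recovered. The planned test assumed only that values were not raw counts, and was kept. The authors also deposited genotype means, their own log2 fold change and their p-values, none of them used, together with other columns for position and gene length. Gene positions equalled GENCODE M21 (GRCm38) for the 6 matched members.

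limma 3.58.1 (R 4.3.3; lmFit, eBayes with a variance trend) was fitted on log2(normalized count + 1) over genes with a mean of at least 1. Alternatives on the recovered reads were edgeR 4.0.16 (quasi-likelihood) and DESeq2 1.42.0, and scripts were tested on simulated data. Tables and plots used Python 3.11.15, pandas 2.3.3, scipy 1.17.1 and matplotlib 3.10.9. No library was a copy of another: the 2 of a label differed by more than sampling noise (median chi-square per gene 8.04 in WT and 27.0 in labelled KO, against 0.455), which does not show separate cultures.

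Members, lists and tests were chosen with earlier results of these data known. Genes named are the members, Tet1, genes of the fixed lists, the 5 nearest to Gja1 and the nearest member to each. Xist and the genes overlapping Panx2 and Gja5 were added after their values were seen. Some genes of the lists count in the totals but are not reported here by name.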

Additional observations from a re-analysis of the deposited data

How the results depend on the processing

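Alternatives were a pseudocount of 0.1, a mean minimum of 5, no filter, equal sums, median ratio, TMM and quantile scaling, no variance trend, a replicate block, each library left out, edgeR and DESeq2. DESeq2 called 1088 genes and 2 members, Gjb2 (-5.05) and Panx2 (-2.30), against 0 and 0 in limma; each other alternative called 0 members and 0 genes, with 2733 genes at an unadjusted p under 0.05 in edgeR. Under quantile scaling the all-gene median was 0.08 in place of -0.07, and the median of the other connexins 0.42 in place of -0.01. Panx1 turned to -0.41 without WT replicate 1 and to -1.09 without labelled KO replicate 2, within a range of -1.09 to 2.12 over libraries left out. The cause of these changes was not tested. The replicate numbers are not stated to mark a pairing, and deviations of same-numbered libraries had a correlation of -0.08; with the replicate block 0 genes were called, and 2583 genes passed at an unadjusted p under 0.05. The mean share of Gja1 was 81.0% in WT and 88.8% in labelled KO without length correction, 81.9% and 88.1% over connexins only, and 80.3% and 88.5% with principal transcript lengths; with 1 library left out it was 58.6% to 65.8% in WT and 76.4% to 82.8% in labelled KO. A fit with 1 library left out assumes that the lone library varies like the other label. With 1 and 2 reads of Gjb2, and 11 and 0 of Gjb6, in the libraries labelled KO, depth sets the lower end of both values.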
